A study of Danio rerio with 30 samples.

Results

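Red blood cell genes were followed through the region of the optic fissure and the dorsal retina of zebrafish embryos. The 9 genes were taken by name from a table of 27731 genes: the embryonic globin genes hbae3 (ENSDARG00000079305) and hbbe2 (ENSDARG00000045143), the haem synthesis genes alas2 (ENSDARG00000038643) and urod (ENSDARG00000006818), the transferrin receptor gene tfr1a (ENSDARG00000101322), the membrane genes slc4a1a (ENSDARG00000012881) and sptb (ENSDARG00000030490), the carbonic anhydrase gene cahz (ENSDARG00000011166) and the transcription factor gene gata1a (ENSDARG00000013477). They were picked as known red cell genes, with earlier results of these data known, and the rule itself used only their names. All 9 passed the filter on low values.

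The study asked which genes differ as the optic fissure closes, a gap in the ventral eye cup through which vessels enter the eye. RNA was sequenced from dissected optic fissure retina (OF) and from dorsal retina as the control region (DR), each before fusion at 32 hours post-fertilisation (hpf), during fusion at 48 hpf and after it at 56 hpf. Each of the 6 groups held 5 biological replicates. The labels name no strain and do not say whether embryos were pooled, and nothing says that replicate samples came from separate clutches, so p-values measure the spread between these samples. RNA of all samples was isolated with the RNeasy FFPE kit, made for fixed tissue, and libraries were built with a SMARTer low-input kit. No ventral retina away from the fissure was compared.

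Red blood cells of the young zebrafish embryo are nucleated cells that circulate with their mRNA, so their transcripts come with any tissue that holds blood. Gata1 and its partners switch on the red cell programme: globin chains, the enzymes that build haem, the receptor that brings in iron, and the membrane and cytosolic proteins that carry carbon dioxide. In the early eye, blood reaches the space behind the lens through hyaloid vessels that pass through the fissure. In bulk tissue, fewer red cells and less RNA per red cell cannot be told apart.

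Values below are normalised counts, that is, reads scaled by the library's size factor, and the reads behind them were recovered. Libraries held 4.49 M to 12.3 M reads in genes (median 9.75 M). A gene with 0 reads can still have up to 3 reads by counting error, which is 2.11 to 9.99 normalised counts depending on the library, and limits of this kind cover counting error only. Folds are log2 differences of normalised count + 1, which understate changes of low genes, tested with limma across 17360 genes and called at an adjusted p under 0.05.

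Some libraries stood apart in genes other than the 9. Both replicate 1 libraries of 32 hpf had a read in few genes, 13854 in OF and 11777 in DR, gave 18.3% and 19.2% of reads to ribosomal protein genes, and the DR library was the shallowest of the 30. In the replicate 5 pair of 48 hpf the genes of eye position went against the labels: the ventral gene vax2 had 21.6 in the library labelled OF and 342 in the library labelled DR, and the dorsal gene tbx5a had 13.6 and 1.02. In the other pairs of 48 hpf, vax2 had 377 to 550 in OF libraries and 0 to 20.1 in DR libraries. The DR library of replicate 1 at 56 hpf had a read in 25740 genes. The calls between regions and between 32 and 48 hpf are given with and without the 2 pairs they use.

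**Figure D1:**
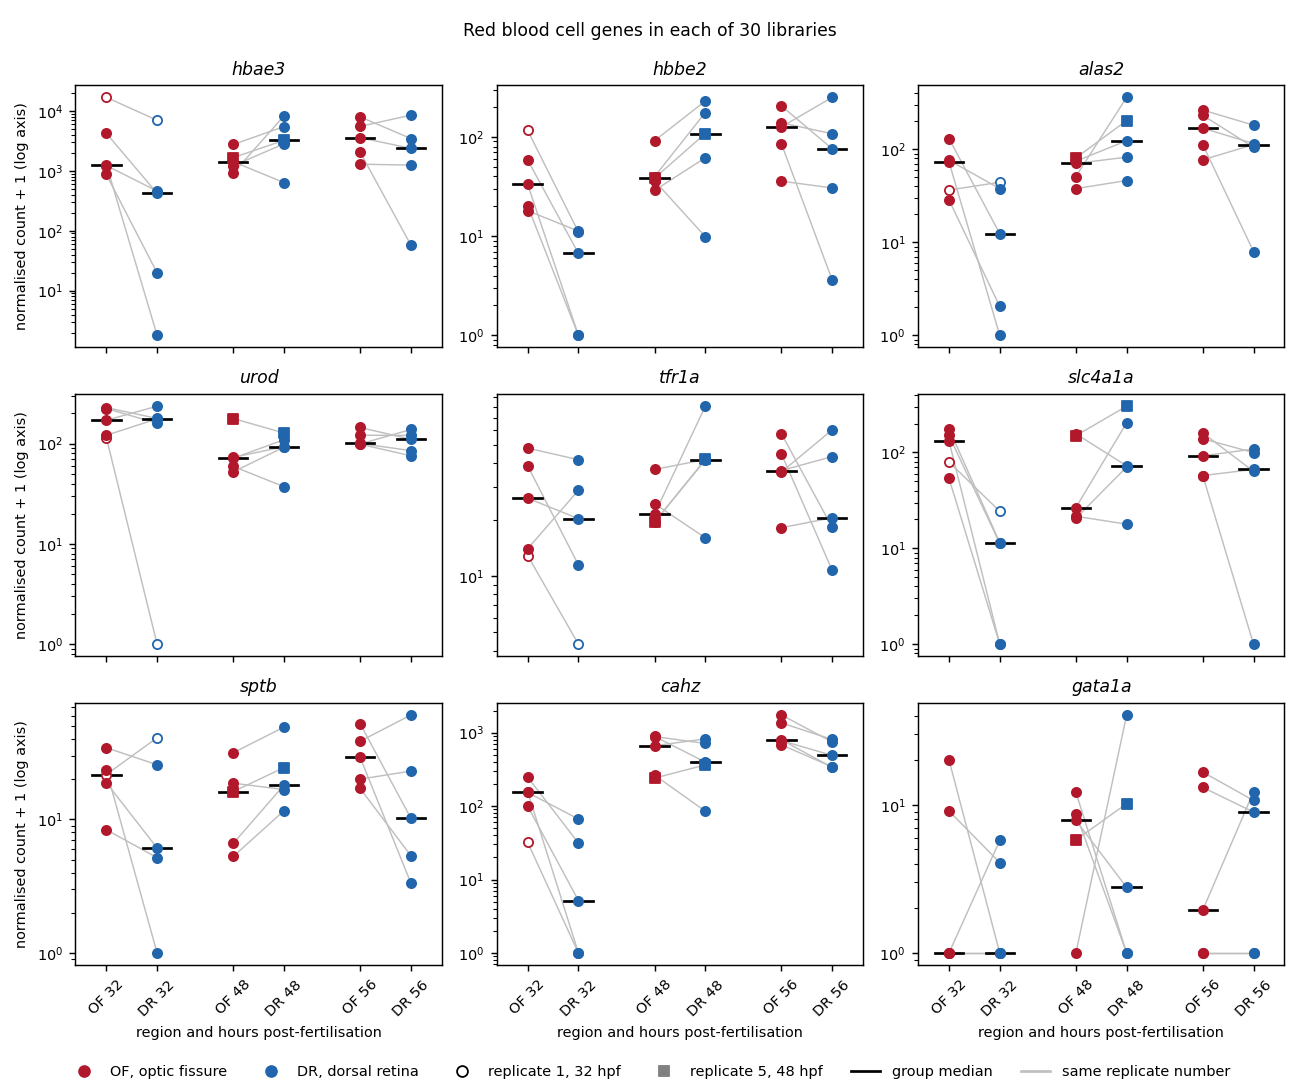
Normalised count + 1 on a log axis for the 9 genes in each of 30 libraries, OF left of DR at 32, 48 and 56 hpf; grey lines join libraries of one replicate number, black bars are group medians, open symbols are replicate 1 of 32 hpf and squares replicate 5 of 48 hpf. Before fusion hbbe2 and slc4a1a were higher in each OF library than in any DR library, as were 0.881% of tested genes. At 48 hpf alas2 was lower in the library labelled OF of each pair, and in 4 of 4 pairs without replicate 5, but was not called. The share of tested genes lower in OF in every pair of 48 hpf was not counted.

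Before fusion, 2 of the 9 red cell genes were higher in OF than in DR at 32 hpf and none was lower, where 1.14% of all tested genes were called, 0.974% as higher and 0.167% as lower. All 9 fold changes were positive, with a median of 2.83 on the log2 scale, against 0.06 over all tested genes. The 2 called genes were cahz and slc4a1a. The carbonic anhydrase of red cells, which cahz encodes, helps to carry carbon dioxide.

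cahz had 31.1, 247, 152, 98.7 and 156 normalised counts in the OF libraries of replicates 1 to 5, against 0, 30.4, 65.6, 4.18 and 0 in the DR libraries. It was higher in OF in all 5 pairs, as 5.02% of tested genes were, though the lowest OF library, replicate 1, lay among the DR values. The means were 137 ± 79.6 in OF and 20.0 ± 28.4 in DR (SD, n = 5 each); the log2 fold change was 4.15 (SE 0.83, adjusted p = 0.00611 with limma). Without both replicate 1 libraries it was 3.94 (SE 0.81, adjusted p = 0.00916), and cahz, slc4a1a and alas2 were called, with 0.974% of tested genes. The call of cahz was lost when only the 2 groups were fitted (adjusted p = 0.73, with 0.225% of genes called) and with edgeR (adjusted p = 0.0569, with 0.904% called).

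slc4a1a encodes band 3, the exchanger of chloride and bicarbonate in the red cell membrane. It had 78.5, 176, 149, 52.6 and 131 in OF libraries, against 23.3, 10.5, 10.2, 0 and 0 in DR libraries. No OF library overlapped the DR libraries, as was true of 0.881% of all tested genes. The means were 117 ± 50.8 in OF and 8.80 ± 9.63 in DR (SD, n = 5 each); the log2 fold change was 4.44 (SE 1.04, adjusted p = 0.0258 with limma), and 5.12 without both replicate 1 libraries (adjusted p = 0.0159). Leaving out OF replicate 2 or 3, or DR replicate 4 or 5, took the adjusted p of slc4a1a to 0.0688, 0.0623, 0.0834 and 0.0918, and fitting only the 2 groups to 0.27.

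The globin genes had large fold changes and a wide spread, and limma with all libraries and no pairing called neither. hbae3, an embryonic alpha chain, had 16762, 4216, 1222, 866 and 1264 in OF libraries, against 6960, 420, 458, 18.8 and 0.801 in DR libraries. The last of these was a single read. The OF library was the higher one in all 5 pairs, as in 5.02% of tested genes, but the DR library of replicate 1 lay above 4 of the OF libraries. The log2 fold change was 4.18 (SE 1.38) and was not called (adjusted p = 0.20), but without DR replicate 1 alone it was (adjusted p = 0.0196).

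hbbe2, an embryonic beta chain, had 115, 57.5, 17.0, 32.3 and 19.2 in OF libraries, against 9.99, 5.70, 10.2, 0 and 0 in DR libraries. Each OF library lay above every DR library, as was true of 0.881% of tested genes. The log2 fold change was 3.32 (SE 0.93, adjusted p = 0.0795 with limma). With DESeq2 on the recovered reads hbbe2 was called (adjusted p = 0.00648, with 2.31% of genes called), and so it was without DR replicate 3 (adjusted p = 0.0438).

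alas2 encodes the red cell form of the first enzyme of haem synthesis. Its values were 35.5, 130, 75.4, 27.7 and 72.4 in OF libraries, against 43.3, 11.4, 36.9, 1.04 and 0 in DR libraries. OF was higher in 4 of 5 pairs, and replicate 1 was the exception. The log2 fold change was 2.83 (SE 0.84, adjusted p = 0.12), and 3.60 without both replicate 1 libraries (adjusted p = 0.0374). Without DR replicate 1 or DR replicate 3 alone the adjusted p of alas2 was 0.0343 or 0.0346.

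Replicate numbers joined OF and DR libraries within a time, and a fit that took this pairing as a block called 5 of the 9 genes at 32 hpf, where 2.82% of tested genes were called. In it hbae3, hbbe2 and alas2 were higher in OF along with cahz and slc4a1a, with adjusted p = 0.0186, 0.0150 and 0.0387 for the added genes. The block without both doubted pairs called the same 5 genes, at adjusted p = 0.00501 for hbae3, 0.0237 for hbbe2 and 0.00366 for alas2, against 3.25% of tested genes.

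The other 4 genes did not pass the test in either fit. sptb, which encodes the beta spectrin of the red cell skeleton, ranged from 7.38 to 33.5 in OF and from 0 to 40.0 in DR, with a fold change of 1.28 on the log2 scale (SE 0.81, adjusted p = 0.74). tfr1a, whose product takes up transferrin-bound iron, ranged from 11.8 to 47.1 in OF and from 3.33 to 40.7 in DR. gata1a was near the floor, with 0 reads in 3 OF and 3 DR libraries and at most 19.2 in OF and 4.75 in DR.

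urod encodes a later enzyme of haem synthesis that other tissues use as well. It had 114, 120, 170, 228 and 223 in OF libraries, against 0, 176, 236, 177 and 159 in DR libraries. No urod read was found in DR replicate 1, and the other 4 DR libraries lay within the range of OF or just above it. Its fold change of 1.34 (SE 0.85, adjusted p = 0.74) came to -0.04 (SE 0.35) without both replicate 1 libraries.

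**Figure D2:**
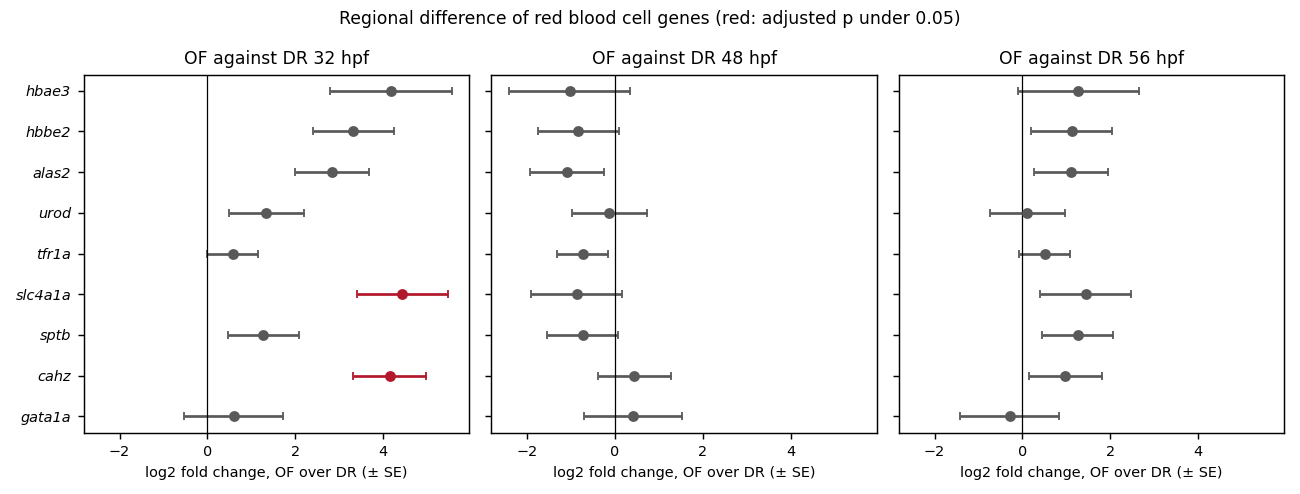
Log2 fold change of OF over DR with its standard error for the 9 genes at 32, 48 and 56 hpf (limma, n = 5 per group); red marks an adjusted p under 0.05. At 32 hpf all 9 were positive and cahz and slc4a1a were called; at 48 hpf 7 were negative and at 56 hpf 8 were positive, none of them called.

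The list of further red cell genes was longer and mixed. Of 75 listed genes 73 were in the table and 61 were tested; 4 rose and none fell at 32 hpf, with a median log2 fold change of 0.41, against 0.06 over all tested genes, of which 0.974% were called higher and 0.167% lower. Without both replicate 1 libraries 4 rose as well, where 0.778% of tested genes did. The risen genes were the globin gene hbae4 (3.65, adjusted p = 0.0195), the dematin gene dmtn of the membrane skeleton (2.38, adjusted p = 0.0415), hemgn, a red cell nuclear factor (2.00, adjusted p = 0.0461), and the biliverdin reductase gene blvrb (1.71, adjusted p = 0.0326). All 8 further globin genes tested had positive fold changes, with a median of 3.83. With the pairing as a block all 8 of them were called, and 13 of the 61 genes rose, where 2.41% of tested genes did.

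Markers of vessels were also measured. Of 25 tested genes of endothelium and hyaloid vessels, 6 rose in OF at 32 hpf and none fell, with a median log2 fold change of 2.19, where 0.974% of tested genes rose and 0.167% fell. Without both replicate 1 libraries 5 vessel genes rose and their median was 1.76, where 0.778% of tested genes rose. The defining markers were cdh5, kdrl, fli1a, erg, pecam1, tie1 and etv2. Of these, erg (4.71, adjusted p = 0.000946 with limma), etv2 (2.82, adjusted p = 0.0193) and cdh5 (2.72, adjusted p = 0.0407) were called. They are named for that reason, and values of the other defining markers are not given. The summed level of the 26 listed vessel genes was 2116 to 3579 in OF libraries and 1089 to 2752 in DR libraries, with plvapa at 0 reads in DR. No tested macrophage or neutrophil marker was called. The summed macrophage level was 129 to 569 in OF and 49.97 to 345 in DR, and that of neutrophil markers 47.5 to 1461 in OF, highest in replicate 1, and 9.99 to 54.2 in DR, where mpx and cpa5 had 0 reads. The summed level of the 5 thrombocyte markers was 49.96 to 118 in OF and 56.3 to 164 in DR. The part of these cells, or of the vessels, in the red cell values was not tested.

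During fusion most fold changes had the other sign, and none passed the test. At 48 hpf none of the 9 genes was called with limma, edgeR or DESeq2, where 0.00576% of tested genes were called with limma; 687 genes, and none of the 9, had an unadjusted p under 0.05. Of the 9 fold changes 7 were negative, with a median of -0.74, against 0.10 over all tested genes. cahz and gata1a were the positive ones. Without the replicate 5 pair the median was -0.67 and again none was called. The share of tested genes called without that pair is not given here, so this lack of calls cannot be set against it. The replicate 5 values below are given under their labels, which that pair's eye position genes went against.

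alas2 was lower in OF in all 5 pairs at 48 hpf as labelled, and in 4 of 4 without replicate 5, with 50.1, 73.6, 69.6, 36.8 and 79.8 in OF libraries, against 362, 123, 81.5, 45.2 and 203 in DR libraries. Its log2 fold change was -1.08 (SE 0.84, adjusted p = 1.00) and was not called. The share of tested genes that were lower in OF in every pair was not counted. hbae3 had 915, 1212, 2745, 1416 and 1656 in OF libraries, against 8217, 2815, 5458, 633 and 3219 in DR libraries. The OF library was the lower one in 4 of 5 pairs, with replicate 4 as the exception, and in 3 of 4 without replicate 5.

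hbbe2 was likewise lower in 4 of 5 pairs, and in 3 of 4 without replicate 5, with 38.8, 28.0, 90.7, 35.1 and 37.5 in OF libraries, against 175, 60.7, 229, 8.87 and 107 in DR libraries. slc4a1a had 25.5, 19.6, 155, 20.6 and 148 in OF libraries, against 203, 69.3, 71.4, 16.8 and 303 in DR libraries, and was lower in 3 of 5 pairs, or in 2 of 4 without replicate 5. The 2 high OF values of slc4a1a came from replicates 3 and 5, and those of the other 3 libraries lay between 19.6 and 25.5.

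tfr1a and sptb were also lower in OF in 4 of 5 pairs, and in 3 of 4 without replicate 5. tfr1a averaged 23.3 ± 7.38 in OF and 43.3 ± 23.1 in DR, and sptb 14.7 ± 10.7 in OF and 23.0 ± 14.8 in DR (SD, n = 5 each). urod averaged 85.9 ± 51.8 in OF and 91.0 ± 33.9 in DR. cahz had 663, 888, 883, 263 and 239 in OF libraries, against 821, 396, 711, 84.2 and 363 in DR libraries, with the regions overlapping throughout.

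After fusion the fold changes were positive again but small against their spread. At 56 hpf none of the 9 genes was called with limma, where 0.253% of tested genes were called and 1009 genes had an unadjusted p under 0.05. edgeR and DESeq2 called none of the 9 either, nor did limma without OF or DR replicate 1 of 56 hpf. The median fold change was 1.1 on the log2 scale, against 0.08 over all tested genes, and 8 of 9 were positive. cahz was higher in OF in all 5 pairs, as were 13% of tested genes, with 1738, 1354, 777, 796 and 681 in OF libraries, against 745, 806, 489, 336 and 341 in DR libraries.

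The other genes overlapped between the regions, and DR replicate 4 was low for several of them. hbae3 had 7917, 5498, 3561, 2039 and 1287 in OF libraries, against 3445, 8458, 2362, 56.6 and 1242 in DR libraries. In the DR library of replicate 4, hbae3 was at 56.6, hbbe2 at 2.61, alas2 at 6.96 and slc4a1a at 0, while cahz was at 336 there, close to the 341 of replicate 5. In the OF library of replicate 4, hbae3 was at 2039, hbbe2 at 84.0, alas2 at 112, slc4a1a at 56.3 and cahz at 796.

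The change of the regional difference between 32 and 48 hpf did not pass the test with limma on all libraries without the replicate block. Other fits differed. The difference of OF against DR at 48 hpf minus that at 32 hpf was negative for all 9 genes, with a median of -3.71, and was called for none, with 1 gene called in the table (0.00576%; 660 genes had an unadjusted p under 0.05). It was -5.31 for slc4a1a (SE 1.46, adjusted p = 0.68), -3.91 for alas2 (SE 1.19, adjusted p = 0.75) and -5.22 for hbae3 (SE 1.96, adjusted p = 1.00). In the fit with the replicate block and without both doubted pairs, 0.403% of tested genes were called, among them slc4a1a (-5.95, adjusted p = 0.0369) and alas2 (-4.62, adjusted p = 0.0415). DESeq2, which called 0.265% of tested genes, called slc4a1a (-4.71, adjusted p = 0.0383) and hbbe2 (-4.66, adjusted p = 0.0286), while edgeR, which called 0.0288%, called none of the 9. These comparisons share libraries with those of each time. At 56 hpf against 32 hpf the median change was -1.73 and none was called, with 1 gene called in the table (711 genes had an unadjusted p under 0.05).

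In the dorsal retina, 5 of the 9 red cell genes rose between 32 and 48 hpf and none fell, where 28.5% of all tested genes were called, 22.1% higher and 6.39% lower. This comparison shares the DR libraries of 32 hpf with that of the regions before fusion. The fold changes of all 9 were positive, with a median of 3.93, against 0.35 over all tested genes. Without the replicate 5 pair of 48 hpf the same 5 genes rose, where 26.6% of tested genes were called, with adjusted p between 1.3e-05 for cahz and 0.0299 for hbae3.

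cahz had the largest fold change of the 9, with 475 ± 294 at 48 hpf, against 20.0 ± 28.4 at 32 hpf (SD, n = 5 each); it was 5.86 on the log2 scale (SE 0.83, adjusted p = 2.3e-06). No DR library of 48 hpf overlapped those of 32 hpf for cahz or alas2, as was true of 14.4% of tested genes, higher at the later time. alas2 averaged 163 ± 126 at 48 hpf and 18.5 ± 20.3 at 32 hpf (3.93, SE 0.84, adjusted p = 0.000617). hbbe2 rose by 4.32 (SE 0.93, adjusted p = 0.000610) and slc4a1a by 4.16 (SE 1.04, adjusted p = 0.00276).

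hbae3 rose by 4.47 (SE 1.38, adjusted p = 0.0148). Without DR replicate 4 or 5 of 32 hpf the adjusted p of hbae3 was 0.0504 or 0.0747, and edgeR gave a fold change of 1.33 (adjusted p = 0.40), with 27.7% of tested genes called. Without both replicate 1 libraries of 32 hpf it was 5.89 (adjusted p = 0.000388), and the same 5 genes rose, where 29.6% of tested genes were called. sptb (1.40, SE 0.81, adjusted p = 0.20) and gata1a did not pass the test. tfr1a did not either (1.26, SE 0.58, adjusted p = 0.11), but passed it without DR replicate 4 of 32 hpf (adjusted p = 0.0455).

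urod depended on 1 library. Its fold change in DR was 0.38 (SE 0.85, adjusted p = 0.77) with all libraries and -1.13 (adjusted p = 0.0136) without DR replicate 1 of 32 hpf, which held no urod read. Without both replicate 1 libraries urod fell in both regions, by 1.21 in OF (adjusted p = 0.00447) and by 1.13 in DR (adjusted p = 0.00969). Over replicates 2 to 5, urod had 51.3 to 177 at 48 hpf and 120 to 228 at 32 hpf in OF, and 36.2 to 127 at 48 hpf and 159 to 236 at 32 hpf in DR.

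In the optic fissure only cahz rose between 32 and 48 hpf among the 9 genes, where 35.2% of all tested genes were called, 25.6% as higher and 9.61% as lower. It averaged 587 ± 320 at 48 hpf and 137 ± 79.6 at 32 hpf (SD, n = 5 each), and the fold change was 2.15 on the log2 scale (SE 0.83, adjusted p = 0.0422). The call was lost without both replicate 1 libraries of 32 hpf (1.70, adjusted p = 0.0828, where 36.9% of tested genes were called), and also without OF replicate 1 or 4 of 32 hpf or OF replicate 1, 2 or 3 of 48 hpf (adjusted p = 0.138, 0.0691, 0.0797, 0.0983 and 0.0975). Without the replicate 5 pair of 48 hpf the fold change of cahz was 2.42 (adjusted p = 0.0363, where 35% of tested genes were called). The median fold change of the 9 genes was -0.05, against 0.38 over all tested genes. hbae3 (-0.75), slc4a1a (-1.15) and sptb (-0.61) had negative fold changes that were not called.

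Between 48 and 56 hpf none of the 9 genes was called in either region with limma, edgeR or DESeq2. These comparisons include the replicate 5 pair of 48 hpf as labelled, and no values without it are given here. In OF 3 genes of the table were called (0.0173%; 665 had an unadjusted p under 0.05) and in DR 2 (0.0115%; 558 had one). The fold changes of 8 of the 9 genes were positive in OF, with a median of 0.98, and those of 3 in DR, with a median of -0.71.

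The further red cell genes were counted over the same step of time. Of the 61 tested, 24 rose and 3 fell in DR between 32 and 48 hpf, with a median of 1.26, where 22.1% of all tested genes rose and 6.39% fell. In OF 13 rose and 3 fell, with a median of 0.04, where 25.6% of all tested genes rose and 9.61% fell, so that 13 of 61 is no more than in the table as a whole. Without both replicate 1 libraries of 32 hpf 25 rose and 2 fell in DR, and 11 rose and 5 fell in OF. In DR the risen genes of the membrane skeleton included add2, an adducin (4.80, adjusted p = 7.1e-07), dmtn (4.35, adjusted p = 1.8e-06) and ank1b, an ankyrin (4.33, adjusted p = 2.5e-06). Among regulators of the programme, lmo2 (2.17, adjusted p = 2.4e-05) and tal1 (3.31, adjusted p = 0.00646), which encode partners of Gata1, rose in DR. gata1a itself was not called there (1.12, adjusted p = 0.485 with limma). Adducin and ankyrin genes are also used by neurons. In the same comparison 12 of 25 vessel genes and 6 of 12 macrophage genes rose in DR, and none of either list fell, where 22.1% of all tested genes rose and 6.39% fell. The summed vessel level in DR was 2933 to 4281 at 48 hpf and 1089 to 2752 at 32 hpf, and the summed macrophage level 576 to 1210 at 48 hpf and 49.97 to 345 at 32 hpf. Their part in the red cell values was not tested.

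The course of cahz over time was followed in more detail. Its group means were 137, 587 and 1069 in OF and of 20.0, 475 and 544 in DR at 32, 48 and 56 hpf. In both regions each library of 56 hpf lay above every library of 32 hpf, as was true of 22.5% of tested genes in OF and 17.8% in DR. Relative to alas2, the log2 ratio of cahz was 0.93 ± 0.71, 3.06 ± 0.91 and 2.68 ± 0.39 in OF and -0.40 ± 2.89, 1.54 ± 0.94 and 2.81 ± 1.51 in DR (SD, n = 5 each). The mean of DR at 32 hpf rested on replicate 1, at -5.47 with no cahz read. Without replicate 1 of 32 hpf the ratio was 1.21 ± 0.40 in OF and 0.87 ± 0.63 in DR (SD, n = 4 each). Both DR means of 32 hpf include replicate 5, where neither gene had a read and the ratio of 0 came from the added 1 alone. The DR mean of 56 hpf was raised by replicate 4, at 5.40, where alas2 was low. The other DR libraries of 56 hpf lay at 1.60 to 2.83. In DR the ratio was higher by 1.93 at 48 than at 32 hpf with all libraries. Without DR replicate 1 of 32 hpf it was higher by 0.66 (exact permutation p = 0.159 and 0.317). In OF it was higher by 2.13 at 48 than at 32 hpf (two-sided exact permutation p = 0.0159, 0.0741 after adjustment over 28 tests), and by 1.85 without replicate 1 of 32 hpf (exact permutation p = 0.0317). This ratio and the globin shares below were chosen after the values had been seen.

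In zebrafish the protein of cahz also marks Müller glia, the radial glia of the retina. Markers of these cells, chosen after the values of cahz had been seen, were therefore set beside it. rlbp1a averaged 531, 1793 and 2304 in OF and 231, 772 and 1117 in DR at 32, 48 and 56 hpf. slc1a2b averaged 148, 765 and 1034 in OF and 167, 401 and 526 in DR, and glula 254, 523 and 811 in OF and 519, 564 and 812 in DR. apoeb, shared with macrophages, averaged 152, 372 and 560 in OF and 82.2, 396 and 408 in DR, while gfap averaged 35.2, 19.9 and 41.5 in OF and 72.3, 18.1 and 11.9 in DR. The part of glia in the level of cahz was not tested.

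Likeness to the mean of the group differed between the 9 genes. Against the mean of the 9 standardised genes over 30 libraries, Pearson's r was 0.91 for alas2, 0.89 for hbbe2, 0.86 for slc4a1a, 0.85 for cahz, 0.79 for hbae3, 0.65 for sptb and 0.57 for gata1a. It was 0.28 for tfr1a and 0.20 for urod. Each gene is part of that mean, and libraries share their region, time and pair, so these are descriptions only. Without replicate 1 of 32 hpf (28 libraries), r was 0.94 for hbae3, 0.14 for tfr1a and -0.17 for urod.

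Genes outside the 9 that were most like their mean depended on those libraries. Over all 30 libraries the leading ones were tgfbr2b, tagln2, nmt1b and the globin gene hbae4 (r = 0.83, 0.82, 0.82 and 0.81), followed by CR735126.1, ednraa, cxxc4, slc29a1b, tmod4 and hic1 at 0.79 to 0.81. Without replicate 1 of 32 hpf the first 5 were all embryonic globin genes: hbae1.3 and hbbe1.3 (both 0.94), hbbe1.2 (0.90), hbae1.2 (0.88) and hbbe1.1 (0.87). slc29a1b, tagln2, dusp5, hemgn and CR735126.1 came next, at 0.80 to 0.85.

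The spread between replicates of one group was wide for most of the 9. The within-group SD on the log2 scale was 2.42 for hbae3, larger than in 99.3% of tested genes, 1.86 for gata1a, 1.77 for slc4a1a, 1.56 for hbbe2 and 0.87 for tfr1a, with a median of 0.81 over tested genes. gata1a had 182 reads in all and none in 13 libraries. In the order of the 6 group means, neighbours overlapped in their ranges for every gene, apart from hbbe2 between OF at 48 hpf and DR at 32 hpf. For hbae3 the order of means was OF at 32 hpf, DR at 48 hpf, OF at 56 hpf, DR at 56 hpf, OF at 48 hpf and DR at 32 hpf. Without replicate 1 the mean of OF at 32 hpf was 1892 ± 1559 in place of 4866 ± 6786, and that of DR 224 ± 248 in place of 1571 ± 3020 (SD, n = 4 and n = 5).

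**Figure D3:**
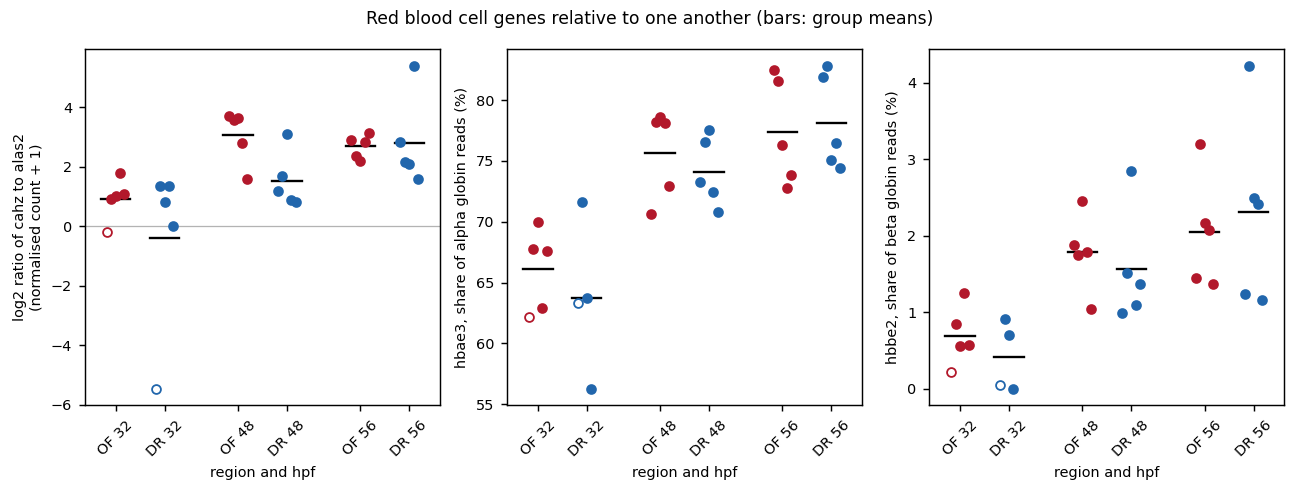
Log2 ratio of cahz to alas2 (left), hbae3 as a percent of alpha globin reads (middle) and hbbe2 as a percent of beta globin reads (right) in each library, OF left of DR at 32, 48 and 56 hpf, with group means as bars and replicate 1 of 32 hpf open. The hbae3 share averaged 66.1% in OF and 63.7% in DR at 32 hpf and 75.7% and 74.1% at 48 hpf, with a DR library of 1 globin read left out.

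The make-up of the globin reads was set out by time and region. hbae3 took 66.1% ± 3.4 of alpha globin reads at 32 hpf, 75.7% ± 3.7 at 48 hpf and 77.4% ± 4.4 at 56 hpf in OF (SD, n = 5 each), and 63.7% ± 6.3 (n = 4), 74.1% ± 2.8 and 78.1% ± 3.9 (n = 5 each) in DR. The DR library of replicate 5 at 32 hpf, with 1 globin read, was left out. hbbe2 took 0.69%, 1.79% and 2.05% of beta globin reads in OF and 0.42%, 1.57% and 2.31% in DR. Its place was small beside hbbe3, another embryonic beta chain, which took 36.8% ± 10.3, 8.85% ± 1.58 and 3.73% ± 3.42 in OF and 33.9% ± 5.97, 8.58% ± 3.52 and 4.38% ± 3.92 in DR.

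Between 48 and 32 hpf the hbae3 share was higher by 9.60 points in OF (two-sided exact permutation p = 0.00794, the smallest that 5 against 5 libraries allow) and by 10.4 points in DR (exact permutation p = 0.0317), and the hbbe3 share lower, by -27.9 points in OF (p = 0.00794) and by -25.3 points in DR (exact permutation p = 0.0159). The hbbe2 share was higher by 1.09 points in OF and by 1.15 points in DR (exact permutation p = 0.0159 each). After adjustment over the 28 tests the hbae3 share in DR stood at 0.111 and each of the others at 0.0741, so none passed. For hbbe2 and hbbe3 in DR, 0.0159 was likewise the smallest exact permutation p that 5 against 4 libraries allow. With p limited in this way, the lack of a pass does not show that the shares were unchanged. Without replicate 1 of 32 hpf the differences in OF and DR were 8.63 and 10.2 points for hbae3, -30.5 and -27.0 for hbbe3 and 0.98 and 1.03 for hbbe2. No test of a difference in these changes between the regions was run. OF and DR libraries of one replicate number were alike in globin make-up, as set out below, so the changes in OF and DR are not independent observations. Between OF and DR the smallest p of these shares at any time was 0.365 by exact permutation. That of the ratio of cahz to alas2 was 0.0397 at 48 hpf, where it was higher by 1.52 in OF (exact permutation, 0.123 after adjustment). It was higher in OF in 5 of 5 pairs there as labelled, and a paired exact test gave 0.0625, the smallest that 5 pairs allow. Replicate 5, whose eye position genes went against its labels, is among these pairs, with a ratio of 1.57 in OF and 0.83 in DR. Neither p is given without that pair. Adult globin genes were near 0, with at most 5 reads of hbaa1, 4 of hbaa2, 2 of hbba1 and 13 of hbba2 in any library.

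**Figure D4:**
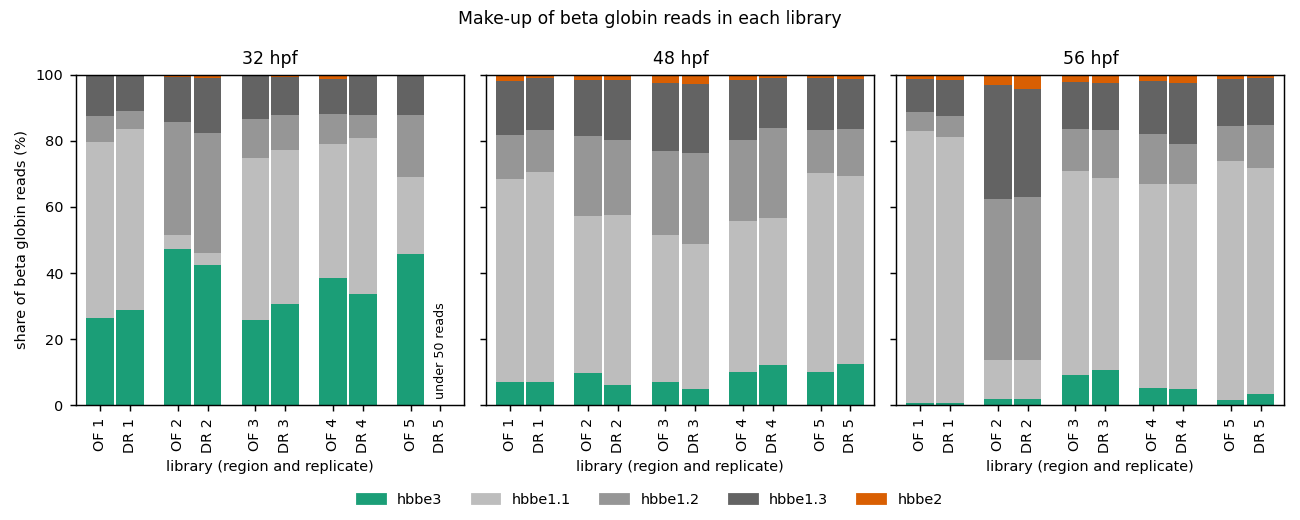
Share of beta globin reads in percent for hbbe3, hbbe1.1, hbbe1.2, hbbe1.3 and hbbe2 in each library, OF beside DR of the same replicate number, at 32, 48 and 56 hpf. OF and DR of one number look alike, as in replicate 2 of 56 hpf with 12.0% and 11.6% of hbbe1.1, while numbers differ; hbbe3 is largest at 32 hpf.

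The make-up of globin reads was more alike within a replicate number than between numbers. In replicate 2 at 56 hpf, hbbe1.1 took 12.0% of beta globin reads in OF and 11.6% in DR (95% Wilson interval 10.8 to 12.5), while in the other 4 pairs it took 61.7% to 82.2% in OF and 57.8% to 80.4% in DR. In replicate 2 at 32 hpf it took 4.16% in OF (3.70 to 4.67) and 3.65% in DR (2.47 to 5.38), against 23.3% to 53.1% in other OF libraries. Over 14 same-number pairs the median difference between OF and DR was 1.97 points for hbbe1.1, against 15.9 points over 56 pairs with other numbers at the same time. For hbae3 as a share of all globin reads it was 1.28 points in same-number pairs and 8.20 points in others. The copies hbbe1.1, hbbe1.2 and hbbe1.3 are nearly alike in sequence, so their reads may be split unevenly in counting, and the values describe reads, not separate genes.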

How the data were processed

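RNA sequencing of 30 libraries was analysed from 1 deposited table of normalised counts, a signal per gene that the authors made by scaling reads with library size factors. The submitters' processing notes list HTSeq, STAR 2.4.0, DESeq2, Picard, Trim Galore and the build GRCz10, with no statement of what each did; strand setting and annotation release are not given in the sources used here. Size factors assume that most genes do not change. All values in the table came out as whole reads within 0.01, which edgeR 4.0.16 (quasi-likelihood) and DESeq2 1.42.0 used as alternatives.

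Genes with at least 10 normalised counts in at least 5 libraries were kept. limma 3.58.1 (R 4.3.3) was fitted to log2(normalised count + 1) with 6 group means over 30 libraries, Benjamini-Hochberg adjustment within each of 9 comparisons, two-sided. The 9 genes and all lists were chosen with earlier results of these data known, and the fit was tested on simulated data. Named further genes were called members of a list, at most 4 per role and comparison, called defining markers of vessels, markers with 0 reads in a group, and the 10 genes most like the mean of the 9. Of 149 listed genes, 139 were found by name, 7 through a gene name table and 3 were not matched.

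Deviations from group means correlated at 0.23 to 0.52 between OF and DR libraries of one number and time (15 pairs). Between other numbers they correlated at -0.33 to 0.28 (60 pairs), with a median of -0.10. Taking out the group mean by itself draws other-number values opposite to same-number ones, so that median is no separate contrast. The numbers were taken to pair the samples by this check and not by the labels. Shares and the ratio of cahz to alas2 were tested by exact permutation (scipy 1.17.1). The shares used libraries with at least 50 globin reads, and the ratio used all libraries. Alternatives changed the pseudocount (0.5, 5), the filter, scaling (TMM), samples, block and tool. No genome was used, and no sequence is shown.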

Additional observations from a re-analysis of the deposited data

Results flagged for a closer look

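In 6 of 54 groups of 5 libraries 1 library lay far from the other 4, by the gap to its neighbour over the range of the group. The gap was taken on normalised counts without a log, and all 6 were the highest library of their group. A rate of about 1 in 20 holds for normally distributed values, so 6 of 54 cannot be set against it. hbae3 had 16762 in OF replicate 1 of 32 hpf and 6960 in DR replicate 1 of 32 hpf, the pair with few detected genes. hbbe2 had 90.7 in OF replicate 3 of 48 hpf. urod had 177 in the library labelled OF of replicate 5 at 48 hpf, the pair whose eye position genes went against the labels. tfr1a had 36.0 in OF replicate 4 of 48 hpf. gata1a had 39.5 in DR replicate 1 of 48 hpf, where alas2 (362), cahz (821) and hbae3 (8217) were also at their highest of that group. In the same group hbbe2 was highest in replicate 3 and slc4a1a in replicate 5.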

How the results depend on the processing

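Of the 9 genes, 2 were called between OF and DR at 32 hpf; 0 were when only the 2 groups were fitted, 1 with edgeR, 5 with the replicate block and 5 with the block and without both doubted pairs, and between 1 and 4 when 1 library was left out. In OF between 48 and 32 hpf 1 was called, where 35.2% of all tested genes were. With a pseudocount of 0.5, without a filter or with TMM 0 were called, and 0 to 1 without single libraries. When only the 2 groups were fitted 2 were called, and urod fell. The shares of all tested genes called in these alternatives are not given here, so these counts cannot be set against them. TMM gave a median of 0.27 over all genes there, against 0.38. In DR between 48 and 32 hpf 5 were called, and 4 to 6 without single libraries. The change of the regional difference from 32 to 48 hpf was called for 0 genes, and for 2 with the block and without both doubted pairs, and 2 with DESeq2. The fold change of urod in DR, 0.38 with all libraries, was -1.13 to 0.85 without single libraries, -1.13 without both replicate 1 libraries and -1.27 without both doubted pairs, an alternative chosen after seeing the data. The block changed no call of the 9 genes at 48 or 56 hpf. As a paired exact test it took the ratio of cahz to alas2 at 48 hpf to 0.0625, against 0.0397 by unpaired exact permutation, both with the replicate 5 pair as labelled. The causes were not tested. Of all alternatives of counts, 191 stayed within 1.5 times and 21 did not, where 0 calls against 0 calls counted as within. Of single values 2124 kept their call or lack of one, and changes of sign that neither fit called are among them. Another 36 lost and 24 gained a call, and 3 changed sign with a call in either fit. For the ratio and the globin shares, a call in these counts meant an unadjusted exact permutation p under 0.05. No paired exact test could reach that, as its smallest p was 0.0625 or 0.125. gata1a had 0 reads in 13 libraries and few in the others.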
